A study of Rattus norvegicus with 9 samples.

Results

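The prostanoid receptors are the cell surface receptors of the prostaglandins, prostacyclin and thromboxane, the lipids made by the cyclooxygenases. The genes were taken by name from the table of 34408 genes of a rat spleen RNA-seq series: Ptger1, Ptger2, Ptger3 and Ptger4 for the PGE2 receptors EP1 to EP4, Ptgir for the prostacyclin receptor IP, Ptgdr for the PGD2 receptor DP1, Ptgfr for the PGF2α receptor FP and Tbxa2r for the thromboxane receptor TP. Of these 8 genes, 7 were found by name and all 7 passed the filter on low counts. Ptgdr was matched by no row of that name and was not analysed here. A row named Ptgdrl, which the RefSeq gene table lists as another name of Ptgdr, held 0 counts in all 9 libraries, where 3 counts would have been 0.157 to 0.213 CPM (read counts scaled to a common library size with edgeR). The genes were chosen by name alone, with no threshold on their counts.

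The series holds 9 libraries from the spleen of wild-type rats, whose cell type label is splenocytes, in 3 groups of 3, a control group, a TAA group and a TAA+celecoxib group. TAA (thioacetamide) damages the liver and serves to induce fibrosis and cirrhosis in laboratory animals. It was injected intraperitoneally every 3 days, at 200 mg/kg for the initial 8 weeks and at 100 mg/kg for the following 8 weeks. Celecoxib, an inhibitor of cyclooxygenase 2, was added at 20 mg/kg/day over the last 8 weeks of the same TAA course. The sources used here do not give strain, age or any vehicle for the controls. The labels do not say that each library came from a separate animal, so p-values measure the spread between these libraries, which may be technical in part.

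Prostanoid receptors are G protein-coupled receptors and fall into classes by the second messenger they move. EP2, EP4, IP and DP1 couple to Gs and raise cAMP; EP1, FP and TP act mainly through Gq and calcium; EP3 couples to Gi and lowers cAMP. In immune tissue EP2 and EP4 carry most of the known effects of PGE2 on T cells, B cells and macrophages, while TP and IP are known from platelets and vessel walls, where they promote and restrain aggregation. Celecoxib acts on the enzyme upstream of all these receptors and not on the receptors themselves.

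Library totals were 14211789 to 19014761 counts. The spleen label was borne out by its lymphoid and macrophage transcripts: Cd79a of B cells was at 133 to 249 CPM, Cd3e of T cells at 45.5 to 124 CPM and C1qa of macrophages at 459 to 1080 CPM. On the first principal component, with 31.3% of the variance, 2 libraries lay away from the rest: control 1 at -63.2 and TAA+celecoxib 1 at -60.3, against -1.73 to 50.1 in the others. Their summed levels of 10 macrophage markers were 3024 and 2421 CPM, against 4676 to 8964 CPM elsewhere, and those of 7 endothelial markers 258 and 252 CPM, against 577 to 921 CPM. The liver transcript Alb was at 575 CPM in TAA 1, 89.0 CPM in control 1 and at most 0.701 CPM in the rest. In whole tissue, fewer cells of a type and less RNA per cell cannot be told apart, which holds for every value below.

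The 2 most abundant receptor transcripts of the rat spleen were those of EP1 and EP4. Levels of different genes are compared here only as FPKM, the authors' length-scaled unit. Ptger1 had a mean of 22.8 FPKM over the 9 libraries (18.2 to 32.1) and Ptger4 of 19.6 FPKM (13.2 to 26.6). A middle group followed, with Ptger2 at 6.89 FPKM (5.37 to 8.98), Tbxa2r at 6.18 FPKM (4.31 to 8.69) and Ptgir at 5.5 FPKM (2.87 to 8.30). Ptgfr was lower at 3.48 FPKM (1.51 to 5.32), and Ptger3 was the lowest at 0.729 FPKM (0.530 to 1.13). Among the 15954 genes tested, 74.5% had a lower mean FPKM than Ptger1, 43.7% than Ptger2 and 9.26% than Ptger3.

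Some of these steps exceeded the spread between libraries and others did not. Ptger4 was above Ptger2 in 9 of 9 libraries with separate ranges, and so was Ptgfr above Ptger3. Ptger1 was above Ptger4 in 7 of 9 libraries, the exceptions being control 1 and TAA+celecoxib 1. The ranges of Ptger2, Tbxa2r, Ptgir and Ptgfr overlapped at each step of the order. Together Ptger1 and Ptger4 made up more of the summed receptor FPKM than the other receptors in each library: Ptger1 took 30.9% to 40.5% and Ptger4 23.2% to 42.2%. The sum of the 7 receptors was 57.6, 65.0 and 69.1 FPKM in the controls, 53.8, 63.9 and 79.2 FPKM with TAA, and 63.2, 60.0 and 75.3 FPKM with TAA and celecoxib, so the groups overlapped.

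**Figure D1:**
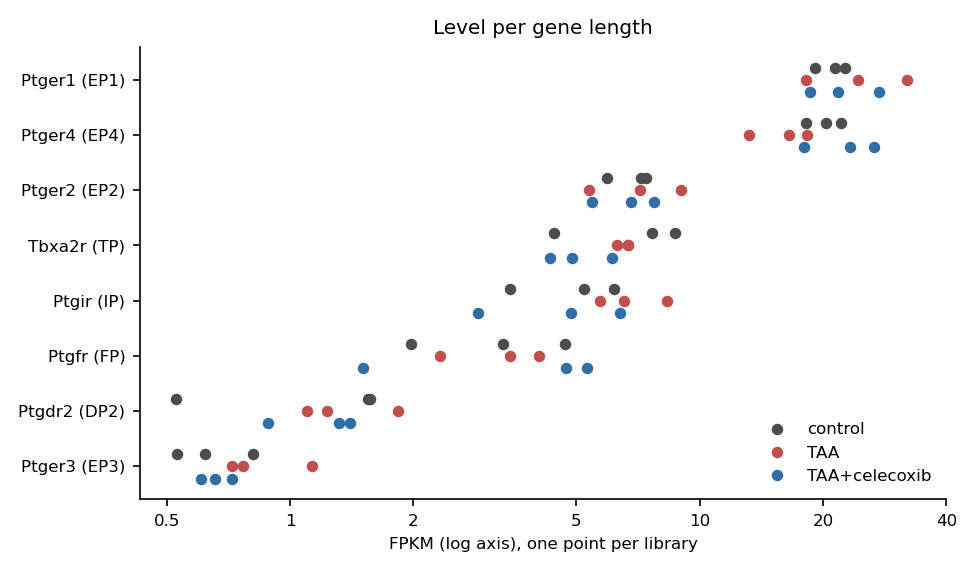
Level of each receptor gene per gene length (FPKM on a log axis), with 1 point per library and colours for the 3 groups; Ptgdr2, the second PGD2 receptor, is shown for comparison. Ptger1 and Ptger4 lie near 20 FPKM, 4 genes lie between 1.51 and 8.98 FPKM, and Ptger3 and Ptgdr2 lie at or below 1.83 FPKM.

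The design gives 3 comparisons: TAA against control, which asks how TAA treatment changed receptor transcripts in the spleen; TAA+celecoxib against TAA, which asks what celecoxib changed in TAA-treated rats; and TAA+celecoxib against control. No receptor gene passed the threshold of adjusted p 0.05 in any of them with edgeR's quasi-likelihood test (0 of 7 in each), against a background of 0% of all genes tested. At an unadjusted p under 0.05 there were 0 of 7 receptors in TAA against control (background 6%), 1 of 7, Ptger4, in TAA+celecoxib against TAA (background 5.09%) and 0 of 7 in TAA+celecoxib against control (background 5.03%). By direction, the background of unadjusted p under 0.05 was 2.85% higher and 3.15% lower in the first comparison, 2.63% and 2.46% in the second and 2.96% and 2.07% in the last. Groups did not overlap for 1 of 7 receptors in TAA against control, Ptger4, which was lower (background 14.8%, of which 6.94% higher and 7.89% lower). In TAA+celecoxib against TAA this was 1 of 7, Tbxa2r, also lower (background 10.9%, of which 5.87% higher and 5.03% lower), and in TAA+celecoxib against control 0 of 7 (background 9.68%, of which 5.27% higher and 4.42% lower). DESeq2 called 0.287%, 0.112% and 0.153% of all genes in the 3 comparisons and no receptor.

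The median log2 fold change of the 7 receptors was 0.07 in TAA against control, -0.13 in TAA+celecoxib against TAA and 0.02 in TAA+celecoxib against control, beside 0.002, 0.007 and 0.001 over all genes. The first 2 comparisons share the 3 TAA libraries, and the first and last share the controls, so their values are not independent. The 95% intervals in TAA against control were narrowest for Ptger4, Ptger1 and Ptger2. For Ptger1, Ptger2 and Ptger4 in turn they ran from 0.844-fold to 1.65-fold, 0.744-fold to 1.48-fold and 0.589-fold to 1.06-fold. The widest was that of Ptgfr, at 0.473-fold to 2.06-fold.

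**Figure D2:**
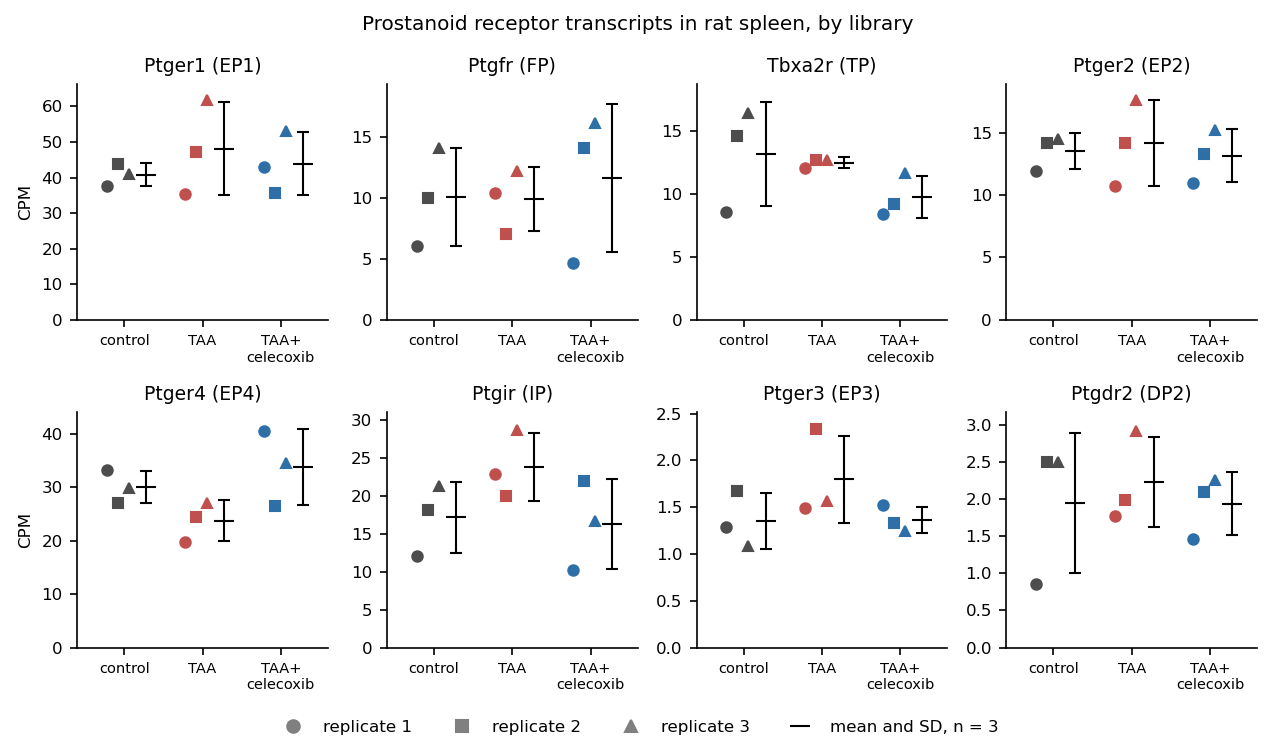
CPM of each receptor gene in every library (points, with shapes for the replicate numbers) with the mean and SD of each group of 3. The TAA points of Ptger4 lie at 19.7 to 27.1 CPM, those of Ptgir at 19.9 to 28.6 CPM, and the TAA+celecoxib points of Tbxa2r at 8.42 to 11.6 CPM.

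Among the Gs-coupled receptors, Ptger4, which encodes the high-affinity PGE2 receptor EP4 (ENSRNOG00000013240, chromosome 2, 54952821 to 54963448), had the smallest p of all receptors in both comparisons with TAA libraries. It was at 33.2, 27.1 and 29.9 CPM in the controls, at 19.7, 24.5 and 27.1 CPM with TAA, and at 40.5, 26.4 and 34.5 CPM with TAA and celecoxib. The TAA libraries lay below the controls, by a margin smaller than the printed digits between TAA 3 and control 2, and TAA+celecoxib 2 fell within the TAA range. The group means were 30.1 ± 3.08, 23.8 ± 3.74 and 33.8 ± 7.06 CPM (SD, n = 3). The log2 fold change was -0.34 (standard error 0.19, edgeR adjusted p = 0.788) in TAA against control, 0.51 (0.19, adjusted p = 0.890) in TAA+celecoxib against TAA, and 0.17 (0.19, adjusted p = 0.957) in TAA+celecoxib against control.

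Groups that did not overlap were common among all genes: 7.89% lay wholly lower in TAA than in control, as Ptger4 did by that narrow margin on the CPM scale but not on the FPKM scale. In the edgeR fit Ptger4 ranked 378 of 15954 genes by p in TAA+celecoxib against TAA (unadjusted p = 0.0243) and 2053 in TAA against control (unadjusted p = 0.105). The unadjusted p of TAA+celecoxib against TAA was no longer under 0.05 without TAA 1, TAA+celecoxib 1 or TAA+celecoxib 3, where the log2 fold change was 0.37, 0.36 and 0.49. Without TAA 1 the change of TAA against control was -0.22. Without both control 1 and TAA+celecoxib 1 the values were -0.27 against control and 0.36 against TAA. An exact permutation test of 3 against 3 libraries cannot go below p = 0.1, so it adds nothing here.

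The T cell marker sum and Ptger4 both lay lower in the TAA libraries than in the controls. Their order over the libraries of a group was the same in TAA+celecoxib and differed in control and in TAA. In the TAA group, TAA 3 had the highest Ptger4, at 27.1 CPM, and the lowest T cell marker sum. That sum, 617 CPM, was close to the 619 CPM of TAA 1. The summed level of 9 T cell markers was 842 to 1051 CPM in the controls, 617 to 750 CPM with TAA and 702 to 989 CPM with TAA and celecoxib. Cd3e was at 112, 87.3 and 79.6 CPM, then 56.4, 61.6 and 45.5 CPM, then 124, 63.6 and 101 CPM. For Cd3e the TAA libraries were the lowest of all 9, and for both genes they lay below the controls and TAA+celecoxib 2 was the lowest of its group. Of the 9 T cell markers, 7 had an unadjusted edgeR p under 0.05 in TAA against control, all lower (background 3.15%). In TAA+celecoxib against TAA there were 3, all higher (background 2.63%). The summed level of 8 B cell markers was 2604 to 3002, 2018 to 2693 and 1994 to 3917 CPM in the 3 groups. It was highest in TAA+celecoxib 1, as Ptger4 was. The part of either cell type in the Ptger4 values was not tested.

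Ptgir, which encodes the prostacyclin receptor IP (ENSRNOG00000016756, chromosome 1, 78833157 to 78837623), showed the opposite order of group means. It was at 12.1, 18.1 and 21.3 CPM in the controls, at 22.8, 19.9 and 28.6 CPM with TAA, and at 10.2, 22.0 and 16.7 CPM with TAA and celecoxib. TAA 3 was the highest, control 1 and TAA+celecoxib 1 were the lowest, and the groups overlapped in every comparison. The means were 17.2 ± 4.64, 23.8 ± 4.45 and 16.3 ± 5.89 CPM (SD, n = 3), and the log2 fold changes were 0.47 (standard error 0.30, edgeR adjusted p = 0.788) in TAA against control and -0.55 (0.31, adjusted p = 0.890) in TAA+celecoxib against TAA. Without control 1 the first was 0.27, without TAA+celecoxib 1 the second was -0.30, and without both they were 0.26 and -0.29.

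Macrophage markers moved in part with Ptgir over the libraries, but not they alone. Their summed level was 3024, 5510 and 5147 CPM in the controls, 6008, 6051 and 8964 CPM with TAA, and 2421, 5139 and 4676 CPM with TAA and celecoxib. The lowest and highest libraries, TAA+celecoxib 1 and TAA 3, were the same for both measures. They were also the lowest and highest for 7 endothelial markers, at 252 and 921 CPM. These markers summed to 258 to 799, 577 to 921 and 252 to 623 CPM in the 3 groups. Platelet and megakaryocyte markers, another known site of IP, summed to 170 to 272 CPM, 322 to 383 CPM and 192 to 271 CPM in the 3 groups. The part of any of these cell types in the Ptgir values was not tested.

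Ptgir was the only analysed receptor whose tabulated start lay at the outer edge of its gene in the RefSeq table, and its promoter is printed for that reason. The tabulated starts of the other 6 analysed receptors lay 97 to 2584 bases inside their genes. The run below holds the 250 bases before the start in the build GRCr8, at chr1:86707440-86707689 on the plus strand, with the GC box GGGCGG in capitals.
Ptgir: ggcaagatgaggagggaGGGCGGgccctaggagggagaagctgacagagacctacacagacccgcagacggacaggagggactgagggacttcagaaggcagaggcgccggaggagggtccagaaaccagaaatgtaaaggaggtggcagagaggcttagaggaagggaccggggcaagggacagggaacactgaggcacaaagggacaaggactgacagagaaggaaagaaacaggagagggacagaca
The GC box, read on both strands, occurred in 32.4% of 27457 rat promoters of the same length. The letters TGACG of the cAMP response element, found in 19% of promoters, and its full form TGACGTCA (1.7%), the E-box CACGTG (5.79%) and the TATA box TATAAA (13.1%) were not in this window. The full element contains the shorter form, so those shares overlap. The window was 58.8% G and C with 6 CpG pairs, where the median promoter had 52% and 6.

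Ptger2, which encodes EP2, the other cAMP-raising PGE2 receptor (ENSRNOG00000050968, chromosome 15, 19338175 to 19350210), differed little between group means. It was at 11.9, 14.2 and 14.5 CPM in the controls, 10.7, 14.2 and 17.6 CPM with TAA and 11, 13.3 and 15.2 CPM with TAA and celecoxib. The TAA libraries held both the lowest and the highest value of all 9. The log2 fold changes were 0.07, -0.10 and -0.04 in the order of the comparisons, each with a standard error of 0.22 (edgeR adjusted p = 0.947, 0.944 and 0.998). The last interval, TAA+celecoxib against control, ran from 0.692-fold to 1.37-fold.

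Of the Gq-coupled receptors, Ptger1 (EP1, ENSRNOG00000004094, chromosome 19, 24800072 to 24803373) was at 37.5, 43.9 and 41.1 CPM in the controls, 35.5, 47.3 and 61.7 CPM with TAA and 43.1, 35.6 and 53.1 CPM with TAA and celecoxib. TAA 3 was the highest and TAA 1 the lowest, so the TAA group spanned the others. The log2 fold change of TAA against control, 0.24 (standard error 0.21, edgeR adjusted p = 0.814), was 0.02 without TAA 3 and 0.42 without TAA 1. For TAA+celecoxib against TAA it was -0.13 (0.21, adjusted p = 0.933).

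Tbxa2r, the thromboxane receptor gene (ENSRNOG00000020585, chromosome 7, 11253180 to 11257977), was at 8.51, 14.6 and 16.4 CPM in the controls, at 12.0, 12.7 and 12.7 CPM with TAA, and at 8.42, 9.19 and 11.6 CPM with TAA and celecoxib. The TAA+celecoxib libraries all lay below the TAA libraries, as did 5.03% of all genes, while control 1 lay near the lowest of them. The log2 fold change was -0.08 (standard error 0.25, edgeR adjusted p = 0.944) in TAA against control and -0.36 (0.25, adjusted p = 0.890) in TAA+celecoxib against TAA. In TAA+celecoxib against control it was -0.44 (0.25, adjusted p = 0.912), with -0.67 without control 1 (edgeR adjusted p = 0.741) and -0.25 without control 3. Platelet and megakaryocyte markers, of the cells best known for TP, summed to 322 to 383 CPM with TAA, above both other groups, where Tbxa2r was within the control range; their part in its values was not tested.

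Ptgfr, the PGF2α receptor gene (ENSRNOG00000046468, chromosome 2, 257005829 to 257038105), varied more than any other receptor over the 9 libraries, with a coefficient of variation of 37.6% against 16.1% for Ptger2. It was at 6.04, 10 and 14.1 CPM in the controls, 10.4, 7.05 and 12.2 CPM with TAA and 4.68, 14.1 and 16.1 CPM with TAA and celecoxib. The lowest values, in TAA+celecoxib 1 and control 1, came from the libraries with the lowest sums of endothelial, of macrophage and of platelet and megakaryocyte markers. Ptgfr was highest in TAA+celecoxib 3, at 16.1 CPM, while the endothelial sum was 623 CPM there and highest in TAA 3, at 921 CPM. The part of any of these cell types in the Ptgfr values was not tested. The log2 fold changes were -0.02, 0.23 and 0.21 with standard errors of 0.47 (edgeR adjusted p = 0.994, 0.942 and 0.990). Without control 1 and TAA+celecoxib 1 they were -0.29, 0.61 and 0.32. An unnamed gene model on the other strand, 129 bases beyond the 3′ end of Ptgfr, held 57 to 223 counts, against 74 to 285 counts for Ptgfr.

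Ptger3, the gene of the Gi-coupled receptor EP3 (ENSRNOG00000010325, chromosome 2, 263895241 to 263979698), rested on 19 to 34 counts per library, where counting alone gives an error of 22.9% to 17.1%. It was at 1.29, 1.67 and 1.08 CPM in the controls, 1.49, 2.33 and 1.57 CPM with TAA and 1.52, 1.33 and 1.24 CPM with TAA and celecoxib. TAA 2 was the highest and all groups overlapped. The log2 fold change was 0.41 (standard error 0.32, edgeR adjusted p = 0.798) in TAA against control and -0.39 (0.32, adjusted p = 0.890) in TAA+celecoxib against TAA. The 95% intervals ran from 0.799-fold to 2.21-fold and from 0.457-fold to 1.27-fold, so changes within these ranges remain compatible with these libraries.

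Ptgdr2, which encodes DP2, the second PGD2 receptor and a chemoattractant receptor of eosinophils, basophils and some T cells, was at a similar low level. Its means were 1.96 ± 0.947 CPM in control, 2.23 ± 0.611 CPM with TAA and 1.94 ± 0.425 CPM with TAA and celecoxib (SD, n = 3). No comparison of it passed the threshold (edgeR adjusted p = 0.919, 0.946 and 0.998).

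**Figure D3:**
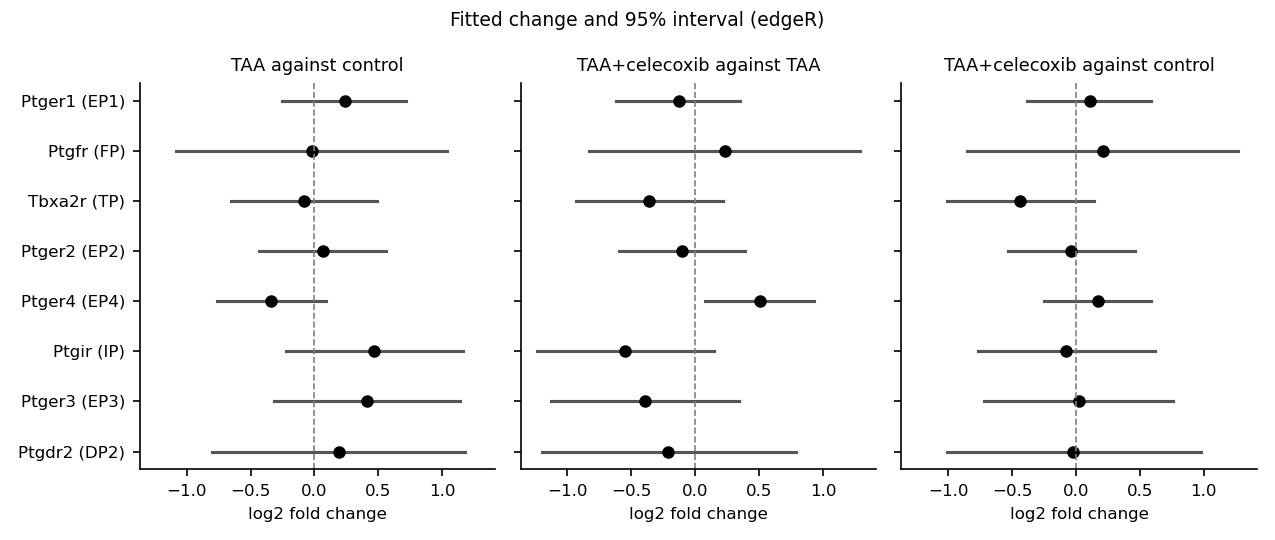
Fitted log2 fold change (point) and 95% interval (line) of each receptor gene in the 3 comparisons, with 0 dashed. Every interval but that of Ptger4 in TAA+celecoxib against TAA (0.08 to 0.93) includes 0, and these intervals are not adjusted for the number of genes.

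Ratios between receptors within a library do not depend on how the library is scaled. The ratio of Ptger4 to Ptger1 in FPKM was 1.16, 0.806 and 0.948 in the controls, 0.724, 0.677 and 0.572 with TAA and 1.23, 0.969 and 0.848 with TAA and celecoxib. The 3 TAA libraries were thus below every control and every TAA+celecoxib library. This ratio was singled out after its values were seen. Of the 21 ratios among the 7 receptors, 6 did not overlap in TAA against control (15.5% of all pairs of tested genes did not) and 5 did not in TAA+celecoxib against TAA (10.9%). Between TAA+celecoxib and control 0 of 21 did not overlap (9.73%). Ptger4 was part of 3 of the 6 and 4 of the 5, so these ratios are not separate observations.

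The balance of Gs-coupled to Gq-coupled receptors was close to even. Summed FPKM of Ptger2, Ptger4 and Ptgir over that of Ptger1, Ptgfr and Tbxa2r was 1.24, 0.912 and 0.974 in the controls, 0.899, 0.880 and 0.832 with TAA and 1.27, 1.11 and 0.922 with TAA and celecoxib. The TAA libraries had the lowest values, by a narrow margin: TAA 1 was at 0.899 and control 2 at 0.912. Ptger4 and Ptger1 hold most of the summed FPKM, so this balance is not separate from their ratio above, which was singled out after its values were seen. The share of such sums over other genes was not computed.

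**Figure D4:**
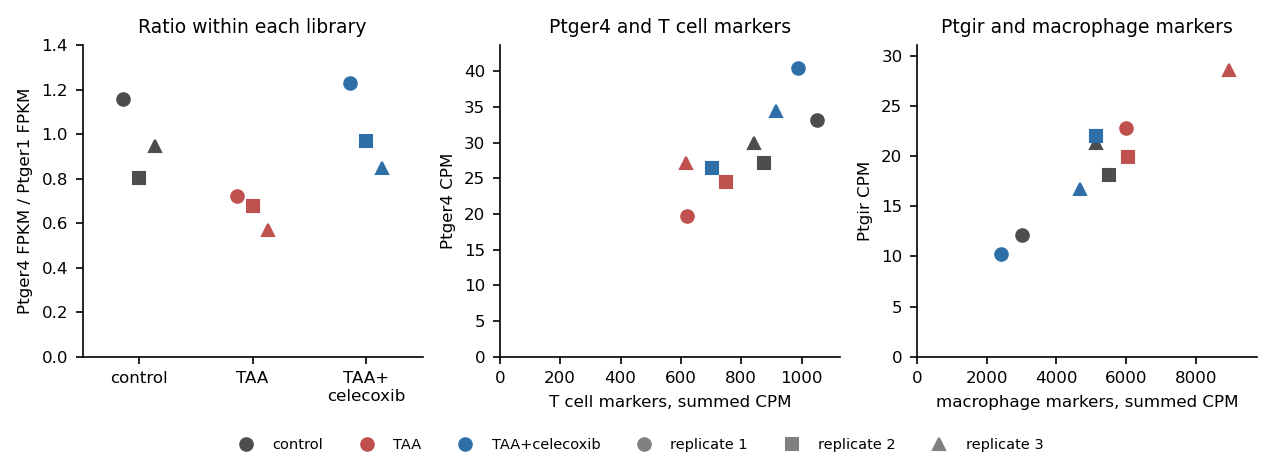
Left, the ratio of Ptger4 to Ptger1 FPKM in each library, 0.572 to 0.724 in the TAA group and 0.806 to 1.23 in the other groups. Middle and right, Ptger4 CPM against the summed CPM of 9 T cell markers and Ptgir CPM against that of 10 macrophage markers, with 1 point per library: the TAA libraries lie at 617 to 750 CPM of T cell markers and at most 27.1 CPM of Ptger4, and TAA 3 has the most Ptgir and macrophage transcripts.

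The receptors did not move as one. Likeness was measured by Pearson's r of log2 CPM over the 9 libraries, which share their group structure and 2 libraries that stand apart, so r is a description. Between receptors it was highest for Ptger1 with Ptger2 (r = 0.79) and Ptgir with Ptgfr (r = 0.72), and lowest for Ptger4 with Ptgir (r = -0.75). The genes most like each receptor were picked as the highest r out of all genes tested. Over 9 libraries, their high r partly reflects that selection. The genes picked were Abhd17b, Zfp958 and Ing5 for Ptger4 (r = 0.965, 0.962 and 0.961), and Gpnmb, Adipor2 and Myo9a for Ptgir (r = 0.985, 0.984 and 0.984). Gpnmb encodes a glycoprotein of macrophages and was at 338 ± 132 CPM in control, 695 ± 184 CPM with TAA and 350 ± 221 CPM with TAA and celecoxib (SD, n = 3).

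For Ptger1 the most alike were Zhx2, Pls3 and Lrrc8c (r = 0.948, 0.909 and 0.897), and for Ptger2 Vim, the intermediate filament vimentin, with Parva and Inpp5a (r = 0.968, 0.955 and 0.952). For Tbxa2r they were Sqstm1, Trim8 and Mink1 (r = 0.971, 0.954 and 0.951), and for Ptger3 Pdia4, Stk24 and the unnamed AABR07060971.1 (r = 0.933, 0.922 and 0.904). Ptgfr was most like Rnf214, Cd300c2 and Slco2a1 (r = 0.975, 0.970 and 0.966). Slco2a1 encodes the prostaglandin transporter, which takes prostaglandins into cells, and varied widely within groups: 103 ± 81.2 CPM in control, 108 ± 36.5 CPM with TAA and 118 ± 78.2 CPM with TAA and celecoxib (SD, n = 3).

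The genes that make the ligands gave 0 calls among 9 tested in each comparison, with median log2 fold changes of -0.17, -0.38 and -0.07. In TAA against control, 4 of the 9 were fitted higher and 5 lower. Groups did not overlap there for 3 that were higher (background 6.94%) and 1 that was lower (7.89%). The lower one was Ptges3, at 204 to 217 CPM with TAA and 219 to 296 CPM in control (edgeR adjusted p = 0.788). Ptgs1, which encodes cyclooxygenase 1, was at 29.6, 39.9 and 42.0 CPM in the controls, 48.2, 47.9 and 73.2 CPM with TAA and 27.4, 42.6 and 36.8 CPM with TAA and celecoxib. The TAA libraries lay above both other groups, as they did for 1.49% of all genes. Its log2 fold change was 0.60 (standard error 0.23, edgeR adjusted p = 0.788) in TAA against control and -0.67 (0.23, adjusted p = 0.890) in TAA+celecoxib against TAA, with macrophage and platelet markers highest in the same libraries; their part was not tested. Ptgs2, the target of celecoxib, rested on 9 to 26 counts and was at 1.17, 0.890 and 1.08 CPM in control, 0.639, 0.822 and 1.25 CPM with TAA and 1.65, 0.771 and 1.18 CPM with TAA and celecoxib, so its groups overlapped. Tbxas1, which makes the TP ligand thromboxane A2, was at 27.6 ± 7.28, 39.2 ± 3.50 and 26.2 ± 11.5 CPM (SD, n = 3), and Pla2g4a, the phospholipase that frees arachidonic acid, at 20.5 ± 10.3, 35.1 ± 4.25 and 21.5 ± 8.39 CPM (edgeR adjusted p of 0.788 in TAA against control for both). Ptgis, the prostacyclin synthase gene, was matched by no row and was not analysed here.

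Among the 6 tested genes of prostanoid transport and breakdown, Hpgd had the smallest p. It encodes 15-hydroxyprostaglandin dehydrogenase, the enzyme that inactivates PGE2 and PGF2α. Hpgd was at 21.5, 14.3 and 18.6 CPM in the controls, at 10.4, 9.32 and 9.40 CPM with TAA and at 14.4, 27.2 and 17.1 CPM with TAA and celecoxib. All TAA libraries lay below both other groups, as 1.89% of all genes did. The log2 fold change was -0.90 (standard error 0.26, edgeR adjusted p = 0.788) in TAA against control and 1.01 (0.26, adjusted p = 0.890) in TAA+celecoxib against TAA. The group means of Hpgd and of Ptger4 were both lowest with TAA, and neither gene passed the threshold.

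**Figure D5:**
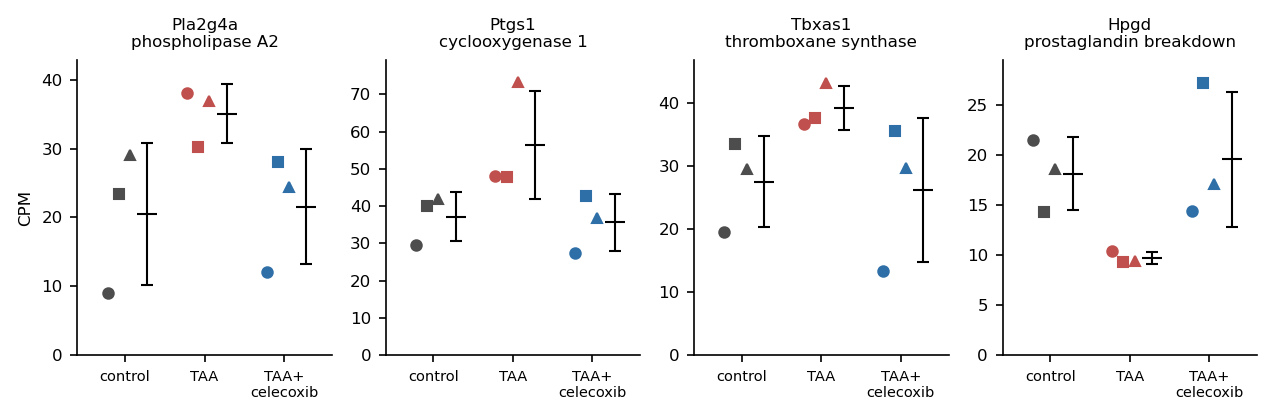
CPM of 4 genes of ligand synthesis and breakdown in every library, with the mean and SD of each group of 3. Ptgs1, Tbxas1 and Pla2g4a are highest in the TAA libraries (47.9 to 73.2, 36.7 to 43.2 and 30.2 to 38.1 CPM), and Hpgd is lowest there (9.32 to 10.4 CPM). Of all genes, 1.49% lie above both other groups with TAA in this way and 1.89% below. None of the 4 genes passed the threshold over all genes. They are a part of their lists: of 9 synthesis genes tested, 4 were fitted higher and 5 lower in TAA against control.

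Downstream of the receptors, 0 of 16 genes of G proteins and adenylyl cyclases, 0 of 16 cAMP effectors and phosphodiesterases and 0 of 9 cAMP-responsive transcripts had an unadjusted edgeR p under 0.05 in any comparison, and none passed the adjusted threshold. The background over all genes was 6%, 5.09% and 5.03%, so in lists of this size few or no such genes are a share near the background. Gnai2, the Gi subunit used by EP3 among many receptors, was at 748 ± 24.6 CPM in control, 760 ± 72.6 CPM with TAA and 687 ± 43.3 CPM with TAA and celecoxib (SD, n = 3). Arrb2, a β-arrestin that turns off receptors, was at 79.1 ± 5.30, 67.7 ± 2.72 and 71.6 ± 9.74 CPM (SD, n = 3).

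Of the 9 cAMP-responsive transcripts, 8 had lower fitted values in TAA+celecoxib than in TAA (median -0.17 on the log2 scale, beside 0.007 over all genes) and 8 than in control (median -0.29, beside 0.001). Both comparisons share the TAA+celecoxib libraries, and no transcript of the list had an unadjusted edgeR p under 0.05 in either. Sik1, a kinase gene induced by cAMP, was at 70.2, 85.1 and 97.5 CPM in the controls, 71.3, 66.6 and 111 CPM with TAA and 61.9, 59.8 and 64.1 CPM with TAA and celecoxib. Its TAA+celecoxib libraries were below every other library. Of all genes, 5.03% lay wholly lower against TAA and 4.42% against control, and the share lower than both was not computed. Sik1 was named for its small p within its list. Its log2 fold change was -0.42 against TAA (standard error 0.20, edgeR adjusted p = 0.890) and -0.44 against control (0.20, adjusted p = 0.911). Crem, a cAMP-responsive transcription factor gene, was at 30.9 ± 2.34, 36.8 ± 15.9 and 27.4 ± 4.16 CPM (SD, n = 3) and overlapped between groups. Besides Ptgs1, Ptgs2 and Hpgd, the 31 pathway genes named by the rule ran from -0.58 (Nr4a3) to 1.75 (Adcy1) in TAA against control and from -1.01 (Dusp1) to 0.31 (Arhgef1) in TAA+celecoxib against TAA. In TAA+celecoxib against control they ran from -0.87 (Fosl2) to 1.81 (Adcy1, at 5 to 96 counts, with a standard error of 0.83), where Prxl2b alone had an unadjusted edgeR p under 0.05. That is 1 of 31 genes that were named for their small p within lists, beside a background of 5.03%.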

How the data were processed

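RNA of 9 rat spleen libraries was sequenced after TRIzol isolation and standard Illumina library preparation, per the labels' protocols. Whole-number gene counts and FPKM values were deposited by the authors. HISAT2 2.0.5 and the build mRatBN7.2 are listed in the submitters' processing notes; no counting tool, annotation or strandedness is named there. Coordinates are printed as in the files, whose build is unresolved. Counts were fitted in R 4.3.3 with edgeR 4.0.16 (TMM, filterByExpr with minimum count 10 and total 15, quasi-likelihood test, all 9 libraries by group, 2-sided), which left 15954 of 34408 genes. P-values were adjusted by Benjamini-Hochberg over these genes, with a threshold of 0.05. Standard errors were derived from the fold change and its F statistic. Alternatives used DESeq2 1.42.0 and limma 3.58.1. The fit was tested on simulated data. Total counts of 14211789 to 19014761 make 1 count worth 0.0522 to 0.0711 CPM.

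All members, lists and the rule for named genes were chosen with earlier results of these data known. The rule named every receptor, Ptgs1, Ptgs2, Ptgdr2, from each pathway list the 3 smallest p-values per comparison, and the 3 genes most like each receptor. A neighbouring gene and a list of signalling genes are not reported here. Where 2 rows share a name, the row with more counts was used, and Ptgr3 was read under its older name Zadh2. Replicate numbers come from the labels. Same-numbered libraries deviated together from their group means in control and TAA+celecoxib (r = 0.4749, 0.1781 and 0.3374 across genes), which meets the rule used for pairing. The other pairings did not meet it: r was 0.24, -0.0214 and 0.189 for control with TAA and 0.1203, -0.2134 and 0.0331 for TAA with TAA+celecoxib.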

Additional observations from a re-analysis of the deposited data

How the results depend on the processing

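No receptor passed the threshold in any of 20 alternative settings per receptor and comparison: other tools, scalings and filters, the FPKM values, a replicate block, and fits without 1 or 2 libraries. Ptger4 kept its sign in all of them, at -0.44 to -0.15 in TAA against control and 0.36 to 0.66 in TAA+celecoxib against TAA (edgeR, DESeq2 or limma adjusted p from 0.559 to 1.0 and from 0.610 to 0.999), and so did Ptgir in these comparisons, at 0.26 to 0.65 and -0.82 to -0.29. Some small changes turned sign, none past the threshold. Among these, the ranges on leaving out 1 library were -0.12 to 0.24 for Ptger2, -0.28 to 0.30 for Ptgfr and -0.31 to 0.11 for Tbxa2r in TAA against control. For TAA+celecoxib against TAA they were -0.33 to 0.09 for Ptger1, -0.28 to 0.09 for Ptger2 and -0.08 to 0.61 for Ptgfr. For TAA+celecoxib against control they were -0.05 to 0.24 for Ptger1, -0.16 to 0.08 for Ptger2, -0.12 to 0.20 for Ptger3, -0.35 to 0.17 for Ptgir and -0.10 to 0.59 for Ptgfr. Ptgfr in TAA against control was also at 0.03 with limma-voom, 0.03 and 0.01 with limma on log2(FPKM + 0.1) and log2(FPKM + 1), 0.03 with limma on log2(FPKM + 0.1) without a filter, and 0.09 with the block. Without control 1 and TAA+celecoxib 1, Ptger2 was at -0.03 and 0.01 in the first 2 comparisons and Ptger3 at -0.10 in the last; without control 1 and TAA 1, Ptger3 was at -0.04 and Ptgfr at -0.06 in the last. The cause was not tested. With the replicate block, 0 genes passed in each comparison; Ptger4 was at -0.33, 0.49 and 0.16 and Ptgir at 0.51, -0.60 and -0.08, and the block changed no call past the adjusted threshold. Ptgir in TAA+celecoxib against TAA then joined Ptger4 at an unadjusted edgeR p under 0.05. The background was higher too (1475, 1287 and 1065 genes at an unadjusted p under 0.05). Over the 20 alternatives, the unadjusted p (edgeR, DESeq2 or limma) in TAA+celecoxib against TAA was under 0.05 in 15 for Ptger4 and 2 for Ptgir. In TAA+celecoxib against control it was so in 3 for Tbxa2r, whose log2 fold change ran from -0.69 to -0.25. No other receptor and comparison had such a setting.

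Over all genes, where edgeR called 0 in each comparison (957, 812 and 803 at an unadjusted p under 0.05), DESeq2 called 50, 22 and 26. Leaving out 1 library gave 0 to 1 calls in TAA against control (1 without TAA+celecoxib 2), 0 to 3 in TAA+celecoxib against TAA (3 without TAA 1) and 0 to 2 in TAA+celecoxib against control (2 without TAA 1). Without control 1 and TAA 1 together edgeR called 1 and 2 in the first 2 comparisons, and with only the 2 groups compared it called 1 in TAA+celecoxib against control; the cause was not tested. Of the 7 receptors, Ptger3 had the fewest counts (19 to 34).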
